A study of Rattus norvegicus with 30 samples.

Results

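The nuclear genes of respiratory complexes II, III and V were described in rat hearts, together with the electron carrier cytochrome c. The members were the gene names of the authors' tables that start with Sdh, Uqcr or Atp5, and the names Cyc1, Cycs, Bcs1l and Atpif1. There were 34 such genes in the table of each age, of 23268 gene names at 8 weeks, 23227 at 21 weeks and 22458 at 78 weeks. Hearts came from untreated rats of the inbred Fischer 344 (F344) strain from a single breeding colony, with 5 females and 5 males at each age and 1 array per heart. All groups shared the strain, the diet and the absence of treatment, and by the labels they differed in sex and age. RNA was taken from whole hearts, which hold muscle, vessel, connective tissue and blood cells, so fewer cells of a type and less RNA per cell cannot be told apart. In the study the animals of different ages were processed in different batches with both sexes in each, so age cannot be told apart from batch in any comparison of ages below.

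Complex II (succinate dehydrogenase) passes electrons from succinate to ubiquinone and is also an enzyme of the citric acid cycle. Complex III takes electrons from ubiquinol to cytochrome c and pumps protons across the inner mitochondrial membrane, and complex V (ATP synthase) lets the protons flow back through its rotating c ring to make ATP. The beating heart depends on this pathway for nearly all of its ATP, and its muscle cells are densely packed with mitochondria.

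Levels are given as log2 of the processed signal relative to the 75th percentile of the array, so that 0 is the 75th percentile and 1 unit is a 2-fold difference. A gene was represented by the probe with the highest mean over the 30 arrays. All 34 representatives were well above background on all 30 arrays. Atp5i and Atp5f1 were saturated on every array of at least 1 group and were not compared, which left 32 genes, 5 of complex II, 9 of complex III, 17 of complex V and Cycs. Between 17182 and 24290 spots per array were well above background. On the arrays labelled female replicate 2 and male replicate 3 at 78 weeks, the Y-linked genes Ddx3y and Eif2s3y had the values typical of the opposite label (Ddx3y -0.90 and -5.48), so results on sex at that age are given with and without both arrays. Nothing in the labels ties the 5 samples of a group to litters, but the array files give slide and scan day. Replicates 1 to 3 of 78 weeks, in both sexes, were scanned on day 1 and replicates 4 and 5 on day 2. All 21-week arrays were scanned on day 2. The p-values measure the spread between these hearts, which also holds slides and, at 78 weeks, scan days.

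The probes of these genes did not all read the same strand, which matters for each result below. The members had 67 probes of 60 bases, and 19 genes had 20 probes that lie on the strand opposite to the probe of the mRNA. In 18 cases the probe on the opposite strand was the first of the rows that carry the gene's name, among 20 genes with more than 1 row. Below are shown the pairs that overlap most, because they read the same piece of the genome from both strands. Capitals mark the bases that a probe shares with its partner as the reverse complement. Coordinates are those of the array files, in build rn3. Atp5g2, a gene for the proton-carrying c ring subunit, has a pair at chr7:141489459-141489518, with the mRNA on the minus strand.

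Atp5g2, mRNA strand: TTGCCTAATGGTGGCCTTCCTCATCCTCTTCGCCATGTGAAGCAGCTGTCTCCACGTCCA

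Atp5g2, opposite strand: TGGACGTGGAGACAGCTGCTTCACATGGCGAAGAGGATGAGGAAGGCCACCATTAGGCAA

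Sdhaf2, which helps attach the flavin cofactor to Sdha, has a pair shifted by a single base at chr1:213143730-213143789 (mRNA strand, minus) and chr1:213143729-213143788.

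Sdhaf2, mRNA strand: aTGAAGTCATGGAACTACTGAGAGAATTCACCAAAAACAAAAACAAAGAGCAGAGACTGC

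Sdhaf2, opposite strand: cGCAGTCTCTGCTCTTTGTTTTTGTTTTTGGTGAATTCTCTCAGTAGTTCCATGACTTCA

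Over the 30 arrays the Atp5g2 probe of the mRNA strand printed above had a mean level of 8.90 and ranged from 8.22 to 10.31, and the probe of the opposite strand had a mean of 1.05 and ranged from 0.21 to 2.04. Of the 20 probes of the opposite strand, 10 exceeded background clearly on all 30 arrays and 7 did so on 0 arrays. Uqcrq, a small subunit of complex III, was represented by a probe of the opposite strand (mean -0.86), because the probe of its mRNA strand was well above background on 0 arrays (mean -5.80). The Uqcrq values below are therefore values of the opposite strand.

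**Figure D1:**
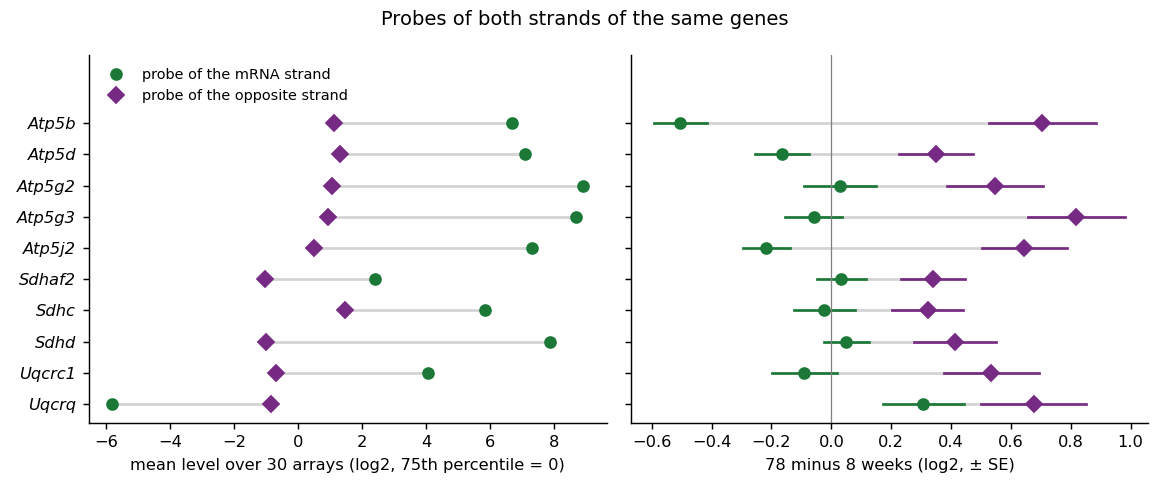
The left panel plots the mean level over 30 arrays (log2, 75th percentile = 0) of the mRNA probe (circles) and of the opposite-strand probe (diamonds) for the 10 genes whose opposite-strand probe was well above background on every array, and the right panel their differences between 78 and 8 weeks (log2, bars are SE). The 10 opposite-strand probes all lay above 0 in the right panel, between 0.32 and 0.82.

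The catalytic and membrane subunits of complex II were detected in every heart. Sdha, the flavoprotein that oxidizes succinate, had a mean level of 8.13 over the 30 arrays, the iron-sulfur subunit Sdhb 7.87, and the membrane anchors Sdhc and Sdhd 5.84 and 7.87. In complex III the core subunits Uqcrc1 and Uqcrc2 had means of 4.05 and 7.42, and the redox subunits Cyc1 (cytochrome c1) and Uqcrfs1 (the Rieske iron-sulfur protein) 5.32 and 7.73. The assembly factor Bcs1l, which inserts the Rieske protein, had a mean of -1.44. The small subunits Uqcrb, Uqcrh and Uqcr11 had means of 8.69, 9.04 and 8.13, and Cycs 7.85. In complex V the F1 head subunits Atp5a1 and Atp5b, which form its ring of catalytic and nucleotide-binding sites, had means of 6.67 and 6.68, and the stalk subunits Atp5c1, Atp5d and Atp5e 7.43, 7.08 and 8.85. The c ring genes Atp5g1, Atp5g2 and Atp5g3 had means of 8.87, 8.90 and 8.68, where Atp5g1 was saturated on 6 arrays and Atp5g2 on 8. The peripheral stalk subunits Atp5h, Atp5j and Atp5o had 7.202, 8.23 and 8.89, and the inhibitor Atpif1 7.205. Atp5s, Atp5sl and Atp5hl1, counted in complex V by their names alone, had 2.58, 0.95 and -0.08. RefSeq lists Atp5s as Dmac2l and Atp5sl as Dmac2, whereas the other genes counted in complex V keep an Atp5 symbol. Levels of different probes also reflect how each probe hybridizes, so their order is not read as an order of the genes.

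Hearts of one group lay close together at 8 weeks and far apart in 21-week males. The median SD of the 32 genes within a group was 0.10 in 8-week females and 0.14 in 8-week males (n = 5 hearts in each group). It was 0.14 and 0.37 in the 21-week groups, and 0.15 and 0.17 in the 78-week groups, females first. The 14886 probes well above background on every array also had their widest spread in 21-week males. Their median SD was 0.12 and 0.13 at 8 weeks, 0.17 and 0.27 at 21 weeks, and 0.19 and 0.17 at 78 weeks. Over all groups the median SD was 0.22 for the 32 genes and 0.21 for those probes. Uqcrc2 (0.13) and Sdhd (0.14) varied least between hearts of a group.

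**Figure D2:**
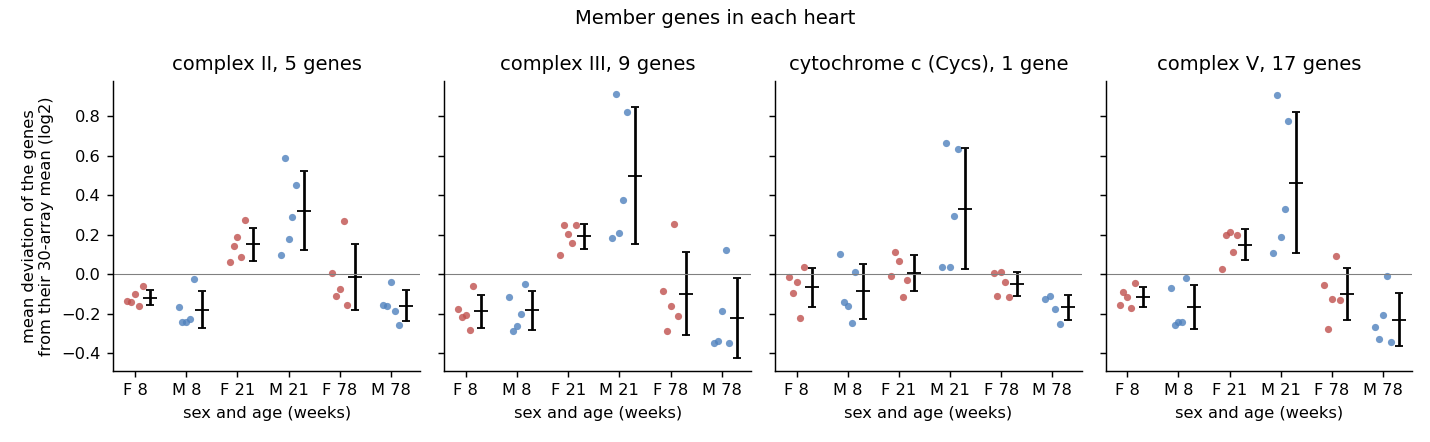
Each point is 1 heart, and the y axis is the mean deviation of the genes of a complex from their own 30-array means (log2), with bars for the group mean and SD (n = 5, and 4 for Cycs in 78-week males). Females (F) and males (M) at 8, 21 and 78 weeks stand along the x axis, and in complexes II, III and V every 21-week heart lies above 0.

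The wide spread of the 21-week males moved with array brightness. The mean deviation of the 32 genes was 0.85 in male replicate 2, 0.73 in replicate 5 and 0.34 in replicate 4, on arrays whose 75th percentile of signal was 39.9, 72.1 and 65.6. In male replicates 1 and 3 it was 0.13 and 0.19, with 75th percentiles of 103.3 and 104.8. The part of array brightness in the level of these genes was not tested.

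**Figure D3:**
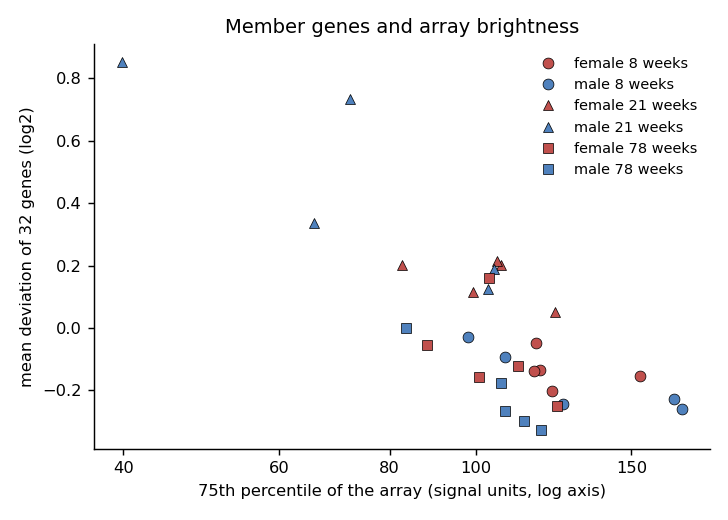
The x axis is the 75th percentile of the processed signal of an array and the y axis the mean deviation of the 32 genes from their 30-array means (log2), with 1 point per array, colored by sex and shaped by age. The 3 arrays of lowest percentile, all 21-week males, are at 0.34 or above.

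At 21 weeks the genes of all 3 complexes lay above their 8-week level. limma, with the slide as a random block and the Benjamini-Hochberg adjustment over all probes, called 28 of 32 genes higher and 0 lower. The calls were 4 of 5 in complex II, 9 of 9 in complex III, Cycs, and 14 of 17 in complex V. Of all probes 41.5% were called higher and 15.2% lower in this comparison, and of the probes detected well above background on every array 43.0% and 20.6%. The median difference was 0.47 over the 32 genes, 0.28 over all probes and 0.15 over the well-detected probes. By complex it was 0.42 for complex II, 0.52 for complex III and 0.46 for complex V. This rise depends on the scaling, as 32 genes lay above 0 here, but 20 after quantile normalization (median 0.06) and 16 after normexp background correction (median -0.01). In 13 of the 32 genes every 21-week heart lay above every 8-week heart, as it did for 3.48% of all probes and 9.44% of the well-detected probes.

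In complex II, Sdhaf2 had values of 2.41, 2.25, 2.07, 2.09 and 2.27 in 8-week females, and 2.11, 2.26, 2.22, 2.28 and 2.15 in 8-week males. At 21 weeks it had 2.64, 2.53, 2.51, 2.50 and 2.56 in females and 2.85, 3.13, 2.84, 2.75 and 3.22 in males. The 10 hearts of 21 weeks all lay above the 10 of 8 weeks, and the difference was 0.54 ± 0.08 (SE, adjusted p = 9.58e-06). Sdha rose by 0.43, Sdhd by 0.42 and Sdhc by 0.34, whereas Sdhb differed by 0.21 (adjusted p = 0.087). The direction turned for Sdha (-0.0363) and Sdhd (-0.0120) after quantile normalization, and for Sdha (-0.0825), Sdhd (-0.0400) and Sdhc (-0.15) after normexp background correction. Sdha and Sdhd also did not overlap between the ages, with 1 male at 8 weeks left out for Sdhd as a flagged spot.

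In complex III the differences were 0.65 for the small subunit Uqcrb, 0.60 for Cyc1, 0.54 for Uqcrfs1, 0.52 for the hinge protein Uqcrh and 0.21 for Uqcrc2. The Uqcrq probe differed by 0.85 (SE 0.17, adjusted p = 0.000376). Uqcrb ranged from 8.21 to 8.61 (median 8.41) at 8 weeks and from 8.74 to 9.78 (median 8.93) at 21 weeks, without overlap. Its difference had an SE of 0.09 and an adjusted p of 5.71e-06 in limma. Cycs, which ferries electrons from complex III to complex IV, rose by 0.24 (adjusted p = 0.00743). After quantile normalization Cycs lay lower at 21 weeks, by -0.19 (adjusted p = 0.00386), as did Uqcrc2 by -0.17 (adjusted p = 0.0233) and Uqcrh by -0.0415 (not called), and after normexp Cycs lay at -0.26 (not called).

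In complex V all 3 c ring genes rose with no overlap between the ages, as did 3.48% of all probes and 9.44% of the well-detected probes. Atp5g1 was saturated on 2 of 10 arrays at 8 weeks and 4 of 10 at 21 weeks, and Atp5g2 on 3 and 5, so their differences are between values some of which are capped. Atp5g1, a c ring gene, had 8.66, 8.84, 8.67, 8.54 and 8.83 in 8-week females and 8.82, 8.47, 8.61, 8.49 and 8.78 in 8-week males. At 21 weeks it had 8.99, 9.06, 9.23, 9.12 and 9.17 in females and 9.14, 10.17, 9.23, 9.51 and 10.02 in males. The ages did not overlap, and the difference was 0.69 ± 0.11 (SE, adjusted p = 2.53e-05). Atp5g2 rose by 0.66 and Atp5g3 by 0.50. After quantile normalization the differences of Atp5g1, Atp5g2 and Atp5g3 were 0.14, 0.0990 and -0.0348, none of them called. After normexp they were 0.17, 0.16 and -0.0392, also not called. Atp5e, of the central stalk, rose by 0.67, and Atpif1, the inhibitor that stops ATP synthase from running backwards, by 0.66. Atp5sl (Dmac2 in RefSeq) rose by 0.65. Atp5e, Atpif1 and Atp5sl were still called after quantile normalization (0.13, 0.33 and 0.61), but not after normexp (0.14, 0.20 and 0.33). The catalytic subunit Atp5b differed by 0.00 (SE 0.09, adjusted p = 0.993). Atp5j2 (0.15) and Atp5hl1 (0.03), which RefSeq lists as a pseudogene, did not pass the test either. After quantile normalization limma called Atp5b (-0.34, adjusted p = 0.00594) and Atp5j2 (-0.21, adjusted p = 0.0291) lower at 21 weeks. After normexp these genes lay at -0.50 and -0.43, not called.

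At 78 weeks nearly all of these genes lay below their 21-week level. limma called 30 of 32 genes lower and 0 higher, and the 2 others were Sdhb (-0.14) and the Uqcrq probe (-0.17). Of all probes 18.2% were called lower and 14.0% higher, and of the well-detected probes 39.9% and 17.8%. The median difference was -0.43 over the 32 genes, -0.17 over all probes and -0.15 over the well-detected probes, and by complex -0.37, -0.51 and -0.42 for II, III and V. There were 27 genes called higher at 21 than at 8 weeks and lower at 78 than at 21 weeks, and both comparisons share the 21-week hearts. Within the scan day that held 21-week and 78-week arrays, 0 genes were called, but 32 of 32 lay below 0 with a median of -0.39. An unadjusted p under 0.05 was seen for 15 genes. In that setting 2058 of 41001 probes were called and 8929 had an unadjusted p under 0.05. The median was -0.19 over all probes and -0.14 over the well-detected probes. After normexp background correction 0 genes were called and 32 of 32 lay below 0 with a median of -0.43. After quantile normalization 15 genes were called lower and 6 lay above 0.

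Cyc1 had values of 5.71, 5.83, 5.33, 5.56 and 5.33 in 21-week females and 6.05, 6.24, 5.76, 5.77 and 6.40 in 21-week males. At 78 weeks it had 4.96, 4.67, 4.88, 6.06 and 4.87 in females and 4.65, 4.68, 4.88, 5.25 and 4.59 in males. It fell by 0.85 (SE 0.13, adjusted p = 1.1e-05), and female replicate 4 at 78 weeks was the heart that overlapped the 21-week group. The array of that replicate was scanned on the same day as the 21-week arrays. In complex III Bcs1l also fell by 0.67, Uqcrfs1 by 0.59 (1 flagged spot left out at each of both ages), Uqcrc1 by 0.53 and Uqcr11 by 0.51. In complex II Sdhaf2 fell by 0.51, Sdhd and Sdhc by 0.37 and Sdha by 0.21, where Sdha lay at 0.15 after quantile normalization.

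In complex V, Atp5g1 had 8.64, 8.38, 8.60, 8.73 and 8.70 in 78-week females and 8.56, 8.00, 8.56, 9.02 and 8.52 in 78-week males. It fell by 0.79 from 21 weeks (SE 0.11, adjusted p = 4.06e-06). Atp5g2 fell by 0.63, Atp5d by 0.63, Atp5c1 by 0.59 and Atp5sl (Dmac2 in RefSeq) by 0.58. For Atp5c1, the central shaft of the F1 head, no 78-week heart reached a 21-week heart (7.38 was the highest and 7.53 the lowest). The smallest difference in complex V was that of Atp5hl1, -0.28.

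**Figure D4:**
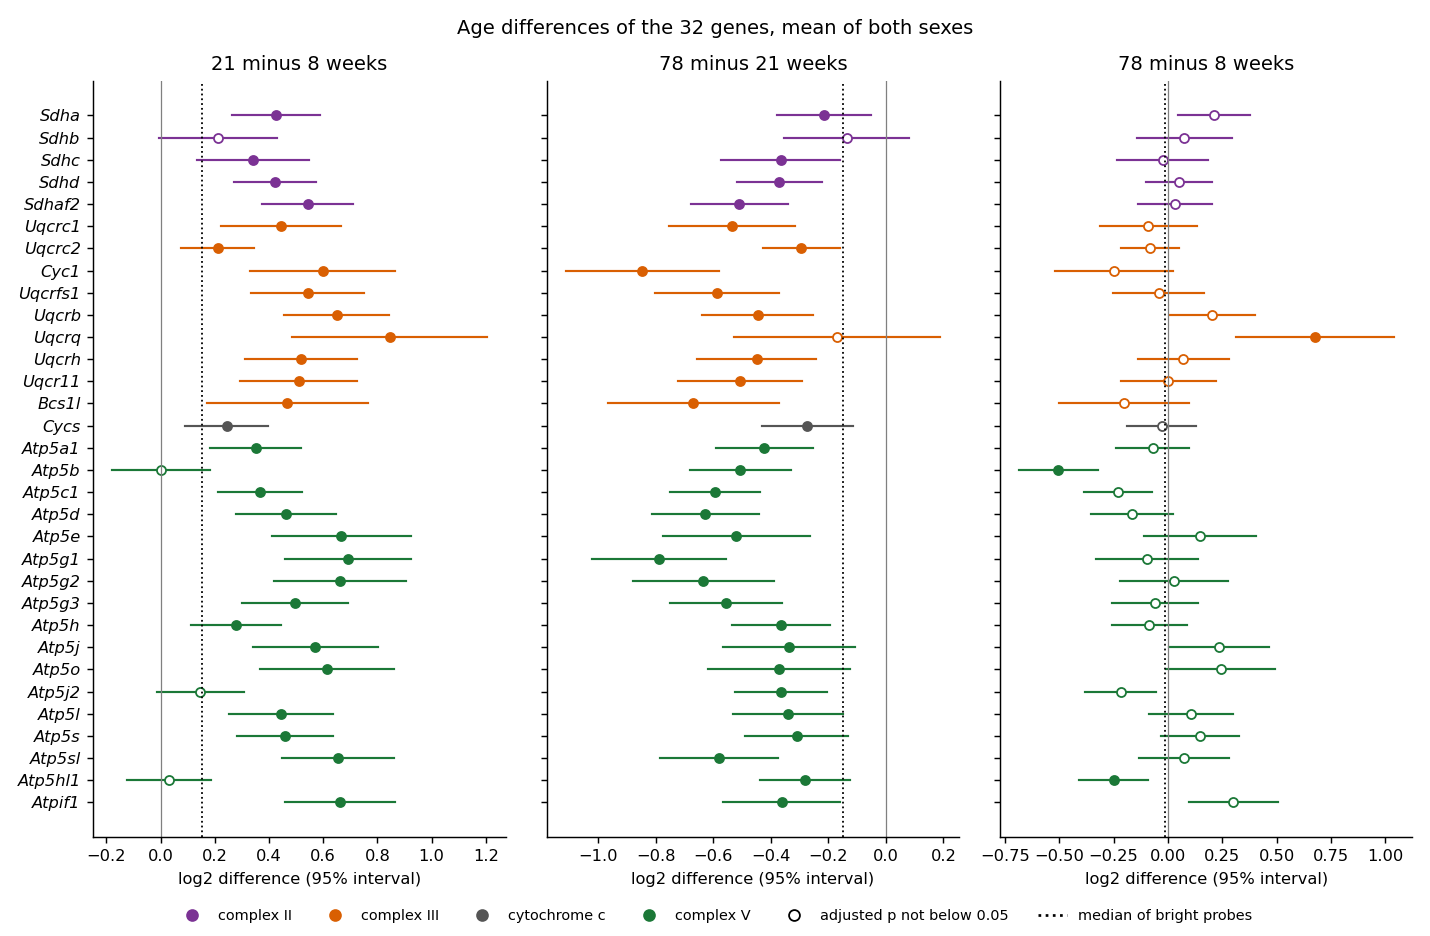
Differences between ages for each of the 32 genes (log2, points with 95% intervals), grouped by complex, for 21 minus 8, 78 minus 21 and 78 minus 8 weeks. Complexes II, III and V lie right of 0 in the first panel and left of 0 in the second, and 16 genes lie on either side of 0 in the third.

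Between 8 and 78 weeks the count of called genes depended on the scaling. limma called 3 of 32 genes, Atp5b and Atp5hl1 lower and the Uqcrq probe higher at 78 weeks. Of all probes 5.95% were called higher and 4.89% lower, and of the well-detected probes 9.81% and 10.3%. The median difference was -0.01 over the 32 genes, against 0.13 over all probes and -0.01 over the well-detected probes. By complex it was 0.05, -0.04 and -0.06 for II, III and V. After quantile normalization 10 genes were called, 8 of them lower, and within the first scan day 9, of which 7 lower. After normexp 0 genes were called, with 30 of 32 below 0 and a median of -0.53. Probes called in these 3 settings were 4308 of 40999, 10601 of 41007 and 337 of 40999, against 4442 of 40999 in the main fit.

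Atp5b, the catalytic beta subunit of ATP synthase, had values of 6.88, 6.79, 6.89, 6.88 and 6.96 in 8-week females, and 6.72, 6.80, 6.80 and 7.0015 in 4 males of that age, with the flagged spot of male replicate 5 left out. At 21 weeks it had 6.78, 6.91, 6.89, 6.83 and 6.54 in females and 6.96, 6.9999, 6.85, 6.78 and 7.0030 in males. At 78 weeks it had 6.61, 6.12, 6.53, 6.98 and 6.18 in females and 6.20, 6.14, 6.23, 6.51 and 6.02 in males. Every 78-week heart but female replicate 4, whose array was scanned on day 2, lay below all hearts of 8 weeks.

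Atp5b fell by 0.50 from 8 to 78 weeks (SE 0.09, adjusted p = 0.000273) and by 0.50 from 21 to 78 weeks (adjusted p = 3.73e-05). It fell by 0.61 in males alone (adjusted p = 0.0065), and in females alone the difference was -0.40 (adjusted p = 0.10). Without female replicate 2 and male replicate 3 of 78 weeks these were -0.61 (adjusted p = 0.0091) and -0.30 (adjusted p = 0.31). Within the first scan day, which held all 8-week and 6 of the 78-week arrays, the difference was -0.55 (SE 0.079, adjusted p = 0.00039). On the 1 slide with both ages it was -0.35 (SE 0.33). It was -0.53 after quantile normalization, and -1.0003 (SE 0.36, adjusted p = 0.076) after normexp background correction. From 21 to 78 weeks Atp5b differed by -0.19 (adjusted p = 0.115) after quantile normalization and by -0.50 (not called) after normexp.

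The Uqcrq probe, on the opposite strand, ranged from -1.78 to -0.88 at 8 weeks and from -0.90 to -0.39 at 78 weeks, where only the highest 8-week heart reached the 78-week range. It rose by 0.68 (SE 0.18, adjusted p = 0.0114). Atp5hl1 fell by 0.25 (adjusted p = 0.0335). In complex II the smallest differences from 8 to 78 weeks were those of Sdhc (-0.02) and Sdhaf2 (0.03), in complex III Uqcr11 (0.00), and in complex V Atp5g2 (0.03). Atpif1 (0.30, adjusted p = 0.0501) and Atp5c1 (-0.23, adjusted p = 0.0528) lay just outside the threshold.

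**Figure D5:**
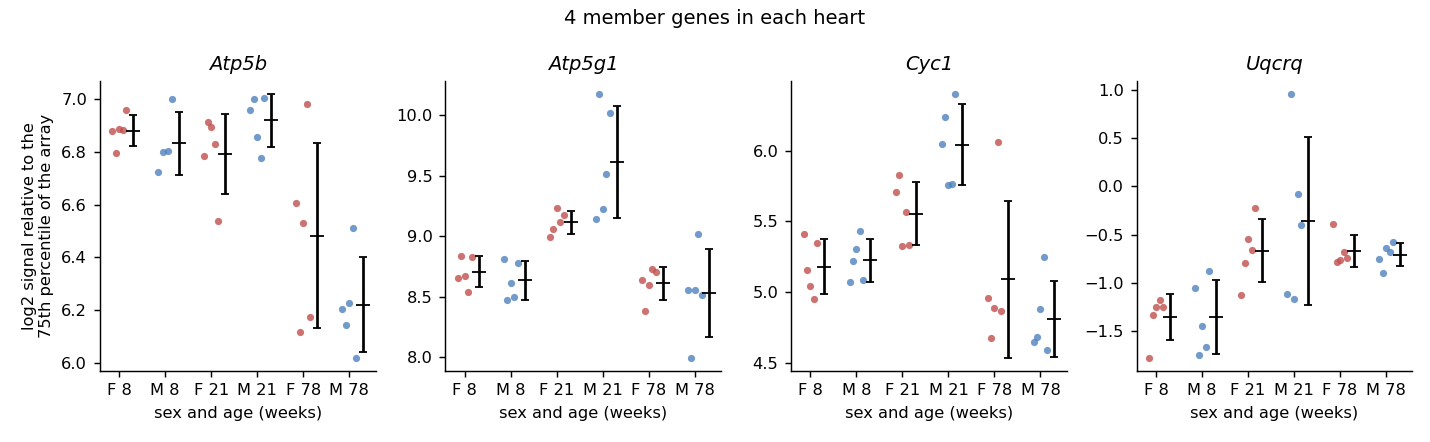
The y axes give the level of Atp5b, Atp5g1, Cyc1 and the Uqcrq probe in each heart (log2 relative to the 75th percentile of the array), with bars for the group mean and SD, by sex (F, M) and age in weeks. Atp5b is lower at 78 weeks, and Atp5g1 and Cyc1 are highest at 21 weeks.

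The 10 well-detected probes of the opposite strand all lay higher at 78 than at 8 weeks, 7 of them called, against 9.81% of the well-detected probes, with a median difference of 0.54 and a range from 0.32 to 0.82. The mRNA probes of the same genes, with that of Uqcrq at background, had a median of -0.04, and 6289 probes of the same range of level had a median of -0.02 (5th to 95th percentile -0.41 to 0.50). The difference between the strands itself was not tested. From 8 to 21 weeks 9 of the 10 were called higher, against 43.0% of the well-detected probes (median 0.53, and 0.44 for the mRNA probes), and from 21 to 78 weeks 0 were called (median 0.07). The direction from 8 to 78 weeks held for 10 of 10 after quantile normalization, within the first scan day and on the shared slide, and for 9 of 10 after normexp, where 0 were called.

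For Atp5b the opposite-strand probe had 0.41, 0.75, 0.997, 0.75 and 0.76 in 8-week females and 0.92, 0.48, 0.69, 0.32 and 0.87 in 8-week males. At 78 weeks it had 1.49, 1.40, 1.32, 0.60 and 1.78 in females and 1.57, 1.27, 1.45, 1.54 and 1.57 in males. It rose by 0.71 (SE 0.18, adjusted p = 0.00905), and 9 of the 10 hearts of 78 weeks lay above all hearts of 8 weeks, the exception being female replicate 4. Its direction was opposite to that of the Atp5b mRNA probe. The Atp5g3 opposite-strand probe rose by 0.82 (adjusted p = 0.00105), that of Atp5j2 by 0.64 (adjusted p = 0.00294) and that of Atp5g2, printed above, by 0.55 (adjusted p = 0.0261).

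Taking the first row of each gene name in place of the best detected probe gave 8 called genes between 8 and 78 weeks. These were 7 higher and 1 lower, against 5.95% and 4.89% of all probes. The first row was a probe of the opposite strand in 18 cases, so this count is not one of the mRNA strand alone. There were 9 further well-detected probes on the mRNA strand, from 7 genes. The sign was that of the representative for 9 of them from 8 to 21 weeks, 9 from 21 to 78 weeks, and 4 from 8 to 78 weeks.

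Split by sex, the course over age had the same sign in females and males for 30 of 32 genes from 8 to 21 weeks. From 8 to 21 weeks the median difference was 0.33 in females, with 3 genes called, and 0.67 in males, with 27 called. Of all probes 2.90% were called higher in females and 39.3% in males. Without the 3 dimmest arrays, all of 21-week males, 12 genes were called in females and 8 in males, with medians of 0.33 and 0.32. Probes called in either direction were then 5386 of 41003 in females and 4395 of 40976 in males. With all arrays they were 2997 of 41003 and 21781 of 40999. From 21 to 78 weeks 2 genes were called in females (median -0.23) and 29 in males (median -0.64), against 3.95% and 19.5% of all probes called lower. Without female replicate 2 and male replicate 3 of 78 weeks these counts were 0 (median -0.19) and 29 (median -0.64), and without the 3 dimmest arrays 4 (median -0.23) and 10 (median -0.32). With all arrays 3705 probes were called in either direction in females and 13181 in males from 21 to 78 weeks. These were 2318 and 11365 without that female and male replicate, and 5631 and 5350 without the 3 dimmest arrays. The test of the sex by age interaction called 0 of 32 genes, and 8 had an unadjusted p under 0.05. Of all probes 0.00244% were called. The larger number in males is therefore not shown to differ from that in females.

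Females and males of the same age did not differ past the threshold for any of the 32 genes. At 8 weeks limma called 0 genes, against 0.0659% of all probes, and 25 genes were higher in females, with a median difference, female minus male, of 0.06. At 21 weeks it called 0 genes, against 0.0317% of all probes. There 31 genes were lower in females. The median was -0.31, against -0.23 over all probes and -0.07 over the well-detected probes. For 4 genes the unadjusted limma p fell below 0.05. The 3 dimmest arrays, all of 21-week males, had mean deviations of the 32 genes of 0.85, 0.34 and 0.73. Male replicates 1 and 3 of that age had 0.13 and 0.19, within the range of the 21-week females (0.05 to 0.22). At 78 weeks limma called 0 genes and 0% of all probes, with an unadjusted p below 0.05 for 1883 of the probes. At that age 31 genes were higher in females (median 0.12). Intervals of the difference reached -0.79 and 0.43 at 8 weeks, -1.13 and 0.51 at 21 weeks and -0.61 and 0.85 at 78 weeks, so differences of that size could not be set aside.

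Sdhaf2 at 21 weeks had the smallest p among the 32 genes. Its 5 males (2.75 to 3.22) all lay above its 5 females (2.50 to 2.64), the difference was -0.41 (SE 0.14, adjusted p = 0.363), and a two-sided exact permutation test gave p = 0.00794, the smallest that 5 against 5 allows. Cyc1 differed by -0.49 (exact permutation p = 0.0317), with overlapping groups. The third smallest p was that of Atp5g1, whose difference is not given because 3 of 5 female and 1 of 5 male arrays were saturated there. The 21-week males also held the 3 dimmest arrays.

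At 78 weeks Atp5j2 was 0.30 higher in females (exact permutation p = 0.0238), Atp5hl1 0.20 (exact permutation p = 0.0159) and Sdhd 0.22 (exact permutation p = 0.0397). Without the arrays labelled female replicate 2 and male replicate 3 these differences were 0.35, 0.26 and 0.28, 31 genes were again higher in females, and 0 were called. At 8 weeks the smallest p-values were those of Atp5l (0.13, exact permutation p = 0.0397), Sdhd (0.11, exact permutation p = 0.0238) and Bcs1l (-0.31, exact permutation p = 0.206). All adjusted p-values were 0.36 or above at each age.

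Genes of the rest of the respiratory chain were also called at 21 weeks, read against the 41.5% of all probes called higher from 8 to 21 weeks and the 18.2% called lower from 21 to 78 weeks. Of 37 measured complex I subunits, 34 were called higher at 21 than at 8 weeks and 32 lower at 78 than at 21 weeks, and of 12 measured complex IV subunits 11 and 9. Other mitochondrial genes, such as the citric acid cycle enzyme citrate synthase (Cs), gave 9 and 7 of 11. Their median differences from 8 to 21 weeks were 0.47, 0.41 and 0.34, against 0.28 over all probes and 0.15 over the well-detected probes.

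Regulators of respiratory genes were called in both directions. Of 12 measured, 5 were called higher and 4 lower at 21 than at 8 weeks, against 41.5% and 15.2% of all probes. For the well-detected probes these shares were 43.0% and 20.6%. The share called higher was close to that of all probes. Tfam, which packages and transcribes mitochondrial DNA, rose by 0.35 and Tfb2m, its partner in transcription, by 0.49. Ppargc1a, the coactivator PGC-1alpha, fell by 0.83 (adjusted p = 2.3e-05) from 8 to 21 weeks and lay 0.42 below its 8-week level at 78 weeks (adjusted p = 0.044).

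Markers of heart cell types were called at 21 weeks as well, read against 41.5% of all probes called higher and 15.2% lower than at 8 weeks. For the well-detected probes these shares were 43.0% and 20.6%. Of 9 cardiomyocyte genes, all well above background on every array, 8 were called higher and 1 (Ryr2) lower than at 8 weeks, with a median difference of 0.58. Their summed linear level was 2848 to 4208 at 8 weeks, 3949 to 10430 at 21 weeks and 3602 to 5325 at 78 weeks. Of 7 fibroblast genes 1 was called higher and 5 lower, of 6 endothelial genes 0 and 5, and of 5 erythroid genes 4 and 0. Of 3 measured smooth muscle genes 1 was called higher and 1 lower, of 6 leukocyte genes 2 and 0, and of 4 measured adipocyte genes 1 and 0. Of 6 skeletal muscle genes 0 were well above background on all arrays. The part of cell makeup in the course of the respiratory genes was not tested.

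Promoters of the member genes are shown as a description, and whether their motifs bear on the age differences was not tested. RefSeq (build GRCr8) held all 34 genes, 28 of them with a promoter of 300 bases, 250 before the start and 50 after it. The motif of NRF-1 (GCGC, any base, TGCGC, on both strands), a factor known for driving respiratory genes, was in 7 of 28 promoters (25.0%), against 4.25% of all 33469 promoters. The motif of GABP (CCGGAAG, both strands), an Ets factor known for the same role, was in 10 (35.7% against 8.75%), and a TATA box (TATAAA, both strands) in 1 (3.6% against 14.22%). At least 1 of NRF-1 and GABP was in 16 (57.1% against 12.18%). Sdha had 3 NRF-1 matches, in capitals, at chr1:30764303-30764602, plus strand. A match is a description of the letters and not a bound site.

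Sdha promoter: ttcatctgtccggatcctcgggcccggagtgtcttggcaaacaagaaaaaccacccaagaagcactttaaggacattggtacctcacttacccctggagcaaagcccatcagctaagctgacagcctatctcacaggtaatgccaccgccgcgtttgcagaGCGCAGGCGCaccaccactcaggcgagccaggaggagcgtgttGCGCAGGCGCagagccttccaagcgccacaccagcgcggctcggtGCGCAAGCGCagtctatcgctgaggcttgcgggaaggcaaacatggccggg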

How the data were processed

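RNA from 30 whole rat hearts was hybridized to 1-color Agilent arrays labeled with Cy3. The scanner files were made by the authors with Agilent Feature Extraction, and the deposited intensity is the background-corrected processed signal of each spot. The authors' tables give, on a linear scale as a signal, this intensity scaled so that the 75th percentile of each array is 1, and were used to choose the 34 genes and as an alternative. Here log2 intensity minus the 75th percentile of each array was computed, spots flagged as outliers were left out, saturated spots were kept, and spots of a probe were averaged.

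Ages were compared with limma 3.58.1 in R 4.3.3 over all 30 arrays and 6 groups with the slide as a random block, and sexes with limma within each age. The slide correlation was -0.042 in the main fit and 0.216 with normexp. The block of the main fit narrowed the age errors slightly (Atp5b from 8 to 78 weeks, SE 0.088 with it and 0.093 without it). Without the block 28 genes were called from 8 to 21 weeks, 29 from 21 to 78 weeks and 3 from 8 to 78 weeks. The Benjamini-Hochberg adjustment ran over all probes with a threshold of 0.05. Sex differences of single genes also had an exact permutation test. At 78 weeks the replicate numbers met the rule for pairing females and males, from the data alone (all 5 same-numbered pairs had deviations that correlated over 0.1, 0.14 to 0.30). Same-numbered females and males were on the same slide. Tables were handled with Python 3.11.15, pandas 2.3.3 and SciPy 1.17.1. A gene stood by its probe of highest mean. Genes were named by the largest differences per complex and comparison among those past the threshold (at most 5), the smallest difference per complex, and the 3 smallest p-values per sex comparison. The members, the lists and the tests were chosen with earlier results of these data known. The fits were tested on simulated data. Alternatives were quantile normalization, normexp correction (offset 50), the raw median signal, a filter on dim probes, other blocks, scan days, and arrays left out. The number of arrays limits the precision.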

Additional observations from a re-analysis of the deposited data

Results flagged for a closer look

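For each of the 32 genes, the gap between the most extreme heart of a group (1 sex and age) and its neighbor was set against the whole range, in 186 groups of 5 hearts and 6 groups of 4. Dixon's 95% value (0.71 for 5 hearts, and the higher value for 4) was passed in 16, where chance gives about 1 in 20. At 78 weeks the extreme heart was female replicate 4 for Cyc1 (6.06), Sdhaf2 (2.88), Uqcrc1 (4.73), Atp5a1 (7.22) and Atp5s (2.74). Female replicate 1 was the extreme for the Uqcrq probe (-0.39). Male replicate 4 of that age had 8.33 for Uqcr11, 8.68 for Uqcrb, 9.30 for Uqcrh, 8.94 for Atp5g3 and 7.74 for Uqcrfs1 (4 hearts). Replicates 4 of both sexes shared slide 8, scanned on day 2, and flags on the same array are not separate events. At 21 weeks male replicate 2 had 7.96 for Atp5j2. At 8 weeks male replicate 4 had 0.89 for Atp5sl and 6.68 for Atp5a1, and male replicate 5 had 8.02 for Sdhb. Female replicate 1 of 8 weeks had -1.78 for the Uqcrq probe.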

How the results depend on the processing

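The age results depended on the scaling. From 8 to 78 weeks the count of called genes, 3, became 10 with quantile normalization, 0 with normexp, 5 with the raw median signal, 5 with a filter on dim probes, 9 within the first scan day, 0 on the shared slide (where 0 of all 40973 probes were called too), 8 with the first row of each name, 0 in females alone and 1 in males alone, and 2 to 6 with single arrays left out (2 without female 78 weeks replicate 2, 6 without male 21 weeks replicate 2). Without the 3 arrays of lowest 75th percentile, an alternative chosen after seeing the data, it was 10. In that setting 10625 of 40999 probes were called, against 10601 of 41007 within the first scan day and 4442 of 40999 in the main fit. From 8 to 21 weeks the count of 28 became 12 (8 higher, 4 lower) with quantile normalization, 1 with normexp, 3 in females alone and 23 without the 3 arrays, and 28 to 29 with single arrays left out. From 21 to 78 weeks the count of 30 became 15, 0 and 2 under the first 3 of these, 0 within scan day 2 (medians -0.375, -0.407 and -0.407 in complexes II, III and V), 14 with the first row, 21 without the 3 arrays, and 29 to 30 with single arrays left out. The median difference of complex II was -0.42 (normexp) and 0.21 (first row) from 8 to 78 weeks, -0.0120, -0.0825 and 0.26 (quantile, normexp, raw median) from 8 to 21 weeks, and -0.00591, -0.17 and -0.14 (quantile, without the 3 arrays, first row) from 21 to 78 weeks. In complex III it was -0.56 and 0.26 from 8 to 78 weeks, 0.14 and 0.0867 (quantile, normexp) from 8 to 21 weeks, and -0.22, -0.30 and -0.29 from 21 to 78 weeks. In complex V it was -0.55 and 0.23 from 8 to 78 weeks, 0.0798 and -0.0215 from 8 to 21 weeks, and -0.17 (quantile) from 21 to 78 weeks. With single arrays left out it ranged, from 8 to 78 weeks, from 0.02 to 0.07, -0.10 to -0.02 and -0.10 to -0.03 in complexes II, III and V. From 8 to 21 weeks it ranged from 0.38 to 0.44, 0.46 to 0.57 and 0.41 to 0.52, and from 21 to 78 weeks from -0.41 to -0.30, -0.56 to -0.44 and -0.50 to -0.40. Among the genes named for a called difference, 13 changes of sign were seen (over all 32 genes, 12 lay below 0 with quantile normalization and 16 with normexp from 8 to 21 weeks). From 8 to 21 weeks these were Cycs (-0.19), Sdha (-0.0363), Sdhd (-0.0120) and Uqcrh (-0.0415) with quantile normalization, and Cycs (-0.26), Sdha (-0.0825), Sdhc (-0.15) and Sdhd (-0.04) with normexp. From 21 to 78 weeks they were Cycs (0.12) and Sdha (0.15) with quantile normalization, and Atp5g2 (0.18) and Uqcrc1 (0.0797) with the first row, and from 8 to 78 weeks Atp5b (0.71) with the first row, a probe of the opposite strand. The cause of the scaling differences was not tested. At 8 and 21 weeks the replicate numbers did not pair females and males (same-numbered pairs from -0.209 to 0.197 and from -0.155 to 0.565). Over all ages 9 of 15 females correlated best with the male of their own number. Same-numbered females and males shared a slide at every age, so a pairing of animals cannot be told apart from the slide. With the replicate block 0 genes were called between the sexes at each age, as without it, and 5, 4 and 0 of all probes against 27, 13 and 0. The sex and interaction counts stayed at 0 (0 to 0) with each single array left out.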
